A study of Mus musculus with 6 samples.

Results

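Heterochromatin is kept silent by proteins that write and read methylation of histone H3 at lysine 9 and of CpG sites in DNA. The transcripts of 10 such factors were followed here in N2a cells with reduced NPM1: the HP1 genes *Cbx1*, *Cbx3* and *Cbx5*, the lysine 9 methyltransferase genes *Suv39h1*, *Suv39h2* and *Setdb1*, the corepressor gene *Trim28*, the DNA methylation genes *Dnmt1* and *Uhrf1*, and the chromatin remodeller gene *Atrx*. They were chosen by name for their role, with earlier results of these data known, and all 10 had a row among the 26656 genes of the deposited tables. N2a is a mouse neuroblastoma line, labelled wild type. Cells were transfected with the plasmid pLKO.1-shNpm1, a single shRNA construct against *Npm1* (NPM1 KD), or with pLKO.1-shCTR, a non-targeting control (CTR), and were lysed after 72 h (3 days in vitro). Puromycin at 9.3 µg/ml was given from 24 h onwards, and the sample descriptions name this selection for the NPM1 KD cells without saying whether CTR cells received it. Each group has 3 libraries of PCR-amplified cDNA sequenced in long reads by nanopore, which the description of the study calls biological replicates, while the treatment protocol speaks of 2 replicates per condition. The study asked whether altered H3K79me2 in cells with less NPM1 goes with altered transcripts, and the repeats that these factors silence were not analysed here.

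SUV39H1, SUV39H2 and SETDB1 place methyl groups on lysine 9 of histone H3, and TRIM28 brings SETDB1 to retroelements through zinc finger proteins that bind their DNA. The HP1 proteins, HP1β (*Cbx1*), HP1γ (*Cbx3*) and HP1α (*Cbx5*), bind this mark through a chromodomain. As a family they help to compact pericentromeric chromatin, much of which surrounds the nucleolus. UHRF1 recognises DNA methylated on 1 strand after replication and directs DNMT1 to copy the methylation to the new strand, and ATRX with DAXX deposits histone H3.3 at telomeres and other repeats.

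The deposited values are regularized log (rlog) values on the log2 scale, corrected for the depth of each library and pulled towards each gene's own mean. All values of 1 or more in size had been rounded to whole numbers, so that a gene can shift by less than 1 without any visible change. The second table gives 1 mean normalized count per gene over all 6 libraries with 10 significant digits, and these digits allowed the reads behind the mean to be solved for each library as whole numbers. Below, "reads" are these solved reads, "normalized reads" are reads divided by the relative depth of the library, and a "solution" is 1 set of 6 whole numbers that gives both the deposited mean and the deposited rlog values. A single solution was found for 94.6% of 8328 genes with a mean of 1 to 25. The relative depth was 1.24, 1.30 and 1.11 for CTR and 0.784, 0.833 and 0.961 for NPM1 KD, so each NPM1 KD library was shallower than each CTR library.

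*Npm1* itself was at 10, 10 and 10 in CTR and at 8, 8 and 8 in NPM1 KD on the rlog scale. It fell by 2 (SE 0.33, adjusted p = 3.23e-06 with limma over 5752 genes), as the labels of the libraries state. Of 15 sympathoadrenal and neuronal markers, 13 had reads, among them *Hand2*, *Gata2* and *Mycn*, while *Nefl* and *Nefm* were at 0 in all 6 libraries. Their summed level (linear rlog) was 1423 to 1553 in CTR and 831 to 879.5 in NPM1 KD. This sum was taken over rlog values rounded to whole numbers, so the size of its fall is uncertain. Of 9 tested markers, 8 had a lower and 1 a higher mean rlog value in NPM1 KD, and 2 passed the test, the granin genes *Chga* (-1.33, adjusted p = 0.026, limma) and *Chgb* (-1.67, adjusted p = 0.0011, limma). The part of this shift in the values below was not tested, and in bulk RNA fewer cells of a kind and less RNA per cell cannot be told apart. Markers of fibroblasts, glia and blood cells were at or near 0, with summed mean normalized counts of 2.18, 5.66 and 0.13, and *Col1a2*, *Gfap* and *Ptprc* had no read.

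None of the 7 silencing factors over the low value filter (mean over 6 libraries not below log2 of 10 on the rlog scale) passed the test after adjustment over all genes. For comparison, 0.487% of the 5752 tested genes passed it. At an unadjusted p below 0.05 there were 3, *Cbx3*, *Dnmt1* and *Uhrf1*, all lower in NPM1 KD, where 8.07% of the tested genes were lower at this level. In 2 of the 7, *Cbx3* and *Dnmt1*, all NPM1 KD values lay below all CTR values, and 3.41% of the tested genes did so. The other 4, *Cbx1*, *Cbx5*, *Trim28* and *Atrx*, had equal means in both groups, as did 48% of the tested genes, and the first 3 of these had 1 value in all 6 libraries, as did 40.2%. *Suv39h1*, *Suv39h2* and *Setdb1* lay under the filter and are described by their reads.

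**Figure D1:**
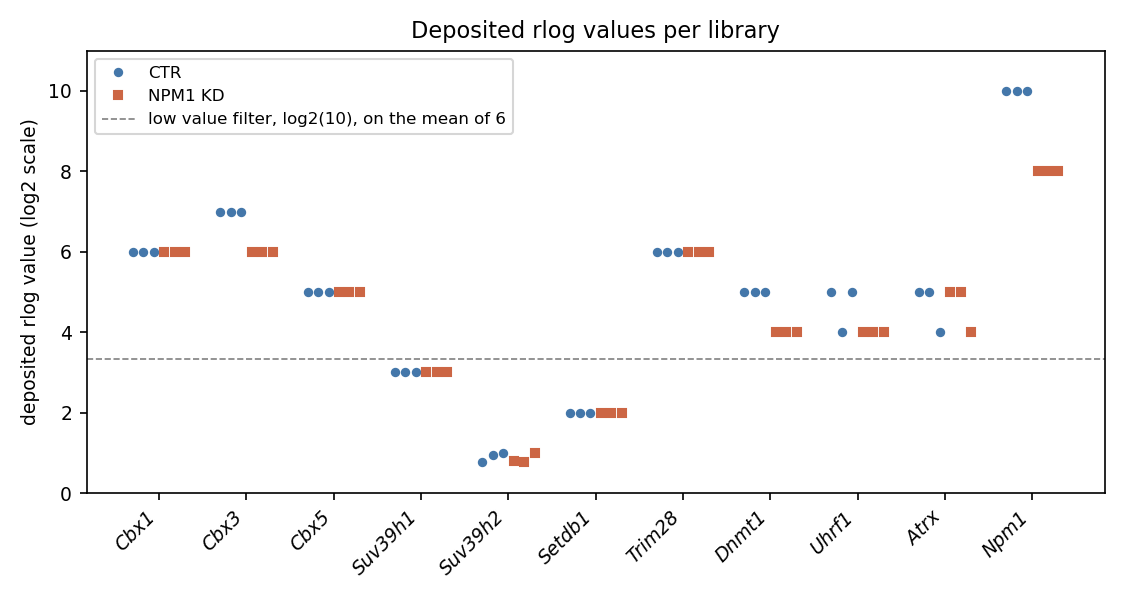
Deposited rlog value (log2 scale) of the 10 silencing genes and of *Npm1* in each of the 3 CTR libraries (circles) and 3 NPM1 KD libraries (squares), with the low value filter as a dashed line. *Cbx3* and *Dnmt1* sit 1 unit lower in every NPM1 KD library, *Uhrf1* is lower than 2 of its 3 CTR values, and 3 genes lie under the filter.

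The promoters of the 3 genes with lower values hold forms of a site that was looked for after these values had been seen. TTTGGCGC and TTTCGCGC are forms of the site bound by E2F factors, which drive genes of DNA replication. RefSeq promoter windows (250 bases before to 50 after each start, build GRCm38.p6) were available for all 10 genes, 16 windows in all, and both strands were searched. Only the 2 strings above were looked for, so other forms of the site would not have been found. *Cbx3* and *Uhrf1* held a match in 1 of 2 windows each and *Dnmt1* held 2 matches in 1 of 3 windows. *Cbx3* held the first form, *Uhrf1* the second and *Dnmt1* both. The windows of the other 7 genes held neither string, and 0.813% of all 32851 windows held 1 or more matches. Counted by gene, 0.929% of 27025 genes with a window had a match. The strings were picked with the values of these genes known, so this split is no test of the site. Its part in the lower values was not tested. The matches are shown with up to 11 bases on either side, 5′ to 3′ on the strand of the gene, with the match in capitals.
Cbx3 (chr6:51470437-51470466, + strand, match from 168 bases before the start): tggagccccgcTTTGGCGCgctccgagacg
Dnmt1 (chr9:20952824-20952853, - strand, match on the opposite strand from 219 bases before the start): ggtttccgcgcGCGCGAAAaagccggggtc
Dnmt1 (chr9:20952574-20952601, - strand, match from 33 bases after the start): gcggggcagcgTTTGGCGCgggctgtgc
Uhrf1 (chr17:56304117-56304146, + strand, match from 185 bases before the start): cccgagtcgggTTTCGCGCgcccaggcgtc
These windows belong to 1 of several annotated starts of each gene, and which start is used in N2a cells is not shown by counts per gene. Of 90 other tested genes with a match, 27 had a lower and 27 a higher mean in NPM1 KD. In 2 of these 90 (2.22%) the NPM1 KD values all lay below the CTR values, against 3.34% of the 4335 tested genes with a window.

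Among the HP1 genes, only *Cbx3*, which encodes HP1γ, had different rlog values in the groups. It was at 7, 7 and 7 in CTR and at 6, 6 and 6 in NPM1 KD. The difference of -1 had an SE of 0.35 and an adjusted p of 0.0791 with limma (unadjusted p = 0.0038), which misses the threshold of 0.05. The values within each group were identical. This SE thus comes from a limit set on the variance for rounding and from other genes, not from the spread of replicates. *Cbx3* had a mean of 103 normalized reads over all libraries, the most of the 10 genes (not corrected for transcript length). At this depth 3229 solutions remained, too many to give reads per library. They gave log2 ratios of NPM1 KD over CTR from -2.53 to -0.57. The rebuilt rlog values behind these bounds were not checked at so high a mean. Solutions were kept only where they gave the rlog values, so that their lower means restate those values and only the bounds are added. GENCODE names 8 processed pseudogenes of *Cbx3*. Only 1 of these has a row in the tables, with a mean of 2.48 normalized reads, and how reads matching both were assigned is not given in the sources used here.

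*Cbx5*, which encodes HP1α, was at 5 in all 6 libraries, with a mean of 36.0 normalized reads. Its values fit 5 solutions, whose log2 ratios of NPM1 KD over CTR ran from -0.25 to 0.37, lower in 2 and higher in 3. Added to the fit on reads 1 at a time, none of the 5 passed the test (adjusted p from 0.566 to 0.867, limma). *Cbx1*, which encodes HP1β, was at 6 in all 6 libraries, with a mean of 59.6 and 42 solutions between -0.84 and 0.90. Thus changes of *Cbx1* within these bounds would not have been visible in the tables, and the bounds of *Cbx5* were closer together.

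The lysine 9 methyltransferase genes had few reads. *Suv39h2* had 0, 3 and 6 reads in the CTR libraries and 0, 0 and 4 in the NPM1 KD libraries. Both groups contain a library without any read, and the groups overlap over nearly their whole range. The mean was 2.56 ± 2.70 normalized reads in CTR and 1.39 ± 2.40 in NPM1 KD (SD, n = 3). On the scale of log2(normalized reads + 0.5) the difference was -0.94 (SE 1.08, adjusted p = 0.736, limma over 7878 genes with a single solution). With 1 library left out it ran from -2.01 (without NPM1 KD replicate 3) to -0.17 (without CTR replicate 3).

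*Suv39h1*, the paralog that acts with *Suv39h2* at pericentromeric repeats, had 6, 3 and 14 reads in CTR and 8, 7 and 10 in NPM1 KD. The CTR libraries spanned the values of all NPM1 KD libraries. The means were 6.57 ± 5.35 and 9.68 ± 1.10 normalized reads (SD, n = 3), and the difference of 0.80 on the same log2 scale had an SE of 0.52 and an adjusted p of 0.496 with limma. With 1 library left out it ran from 0.28 (without CTR replicate 2) to 1.39 (without CTR replicate 3). *Suv39h1* alone among the 5 factors in this fit had a higher mean in NPM1 KD.

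*Setdb1*, whose product methylates lysine 9 at retroelements, had 4, 7 and 7 reads in CTR and 2, 1 and 4 in NPM1 KD. After division by depth, the highest NPM1 KD library (4.16) exceeded the lowest CTR library (3.22), so the groups overlapped. The means were 4.96 ± 1.57 in CTR and 2.64 ± 1.48 normalized reads in NPM1 KD (SD, n = 3). The difference was -0.87 (SE 0.64, adjusted p = 0.552, limma), and -0.49 without NPM1 KD replicate 2. All 6 deposited values of *Setdb1* were 2 and all 6 of *Suv39h1* were 3, so neither pattern can be read from the rounded table.

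*Trim28*, the corepressor that recruits SETDB1, was at 6 in all 6 libraries, with a mean of 64.2 normalized reads. It fits 142 solutions with log2 ratios from -1.07 to 1.08. Changes of *Trim28* within these bounds would not have been visible in the tables.

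*Dnmt1*, the maintenance DNA methyltransferase gene, had 41, 36 and 29 reads in the CTR libraries and 13, 14 and 20 in the NPM1 KD libraries. These are 33.0, 27.6 and 26.0 normalized reads in CTR and 16.6, 16.8 and 20.8 in NPM1 KD, and the groups did not overlap, also after division by depth. Of all 7878 genes in the fit on reads, 12.2% had NPM1 KD values that all lay below the CTR values, and 14.9% of 417 genes with a mean of 20 to 25 normalized reads. The means were 28.9 ± 3.67 in CTR and 18.1 ± 2.38 in NPM1 KD (SD, n = 3), a log2 ratio of -0.68. The fit on log2(normalized reads + 0.5) gave -0.66 (SE 0.29, unadjusted p = 0.0317, adjusted p = 0.292, limma). Of the 5 factors in this fit, *Dnmt1* alone was below an unadjusted 0.05, where 10.2% of all genes in the fit were lower at this level. None of the 5 passed after adjustment, and 1.41% of all genes did.

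The rlog values of *Dnmt1* were 5, 5 and 5 for CTR and 4, 4 and 4 for NPM1 KD, a difference of -1 (SE 0.33, adjusted p = 0.0791, limma). As for *Cbx3*, this SE does not come from the spread of replicates. Rounding enlarged the difference of -1. Rebuilt from its reads before rounding, the values were 4.80, 4.66 and 4.62 for CTR and 4.34, 4.34 and 4.47 for NPM1 KD. The rebuilding was fitted on 1915 genes with few reads whose values kept decimals. In 4437 further genes, with means of up to 15.2 and a single set of reads fixed by the mean alone, all 6 rebuilt values rounded to the deposited ones within 0.01. The mean of *Dnmt1* lies above this range and by itself allowed 51 sets, of which the rlog values left 1. The means of *Cbx1*, *Cbx3*, *Cbx5*, *Trim28*, *Uhrf1* and *Atrx* lie above it too. Their solutions and bounds thus rest on rebuilt values outside the range of this check.

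*Uhrf1*, whose product brings DNMT1 to newly copied DNA, was at 5, 4 and 5 in CTR and at 4, 4 and 4 in NPM1 KD. The groups touch through the second CTR library, and the difference of -0.67 had an SE of 0.33 and an adjusted p of 0.33 with limma. Its values fit 2 solutions. The first has 46, 7 and 52 reads in CTR and 9, 10 and 12 in NPM1 KD, a log2 ratio of -1.31. The second has 50, 20 and 32 reads in CTR and 5, 13 and 18 in NPM1 KD, a log2 ratio of -1.05. In both, the second CTR library lies within or below the NPM1 KD libraries and the other 2 CTR libraries lie above all of them. Added to the fit on reads, the first gave a difference of -0.81 (SE 0.51, adjusted p = 0.482, limma) and the second -1.05 (SE 0.40, adjusted p = 0.217, limma).

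*Atrx*, the remodeller gene, had 41, 46 and 14 reads in CTR and 21, 19 and 13 in NPM1 KD. The third library of each group was the lowest, at 12.6 normalized reads in CTR and 13.5 in NPM1 KD, and both groups overlapped. The means were 27.0 ± 12.5 and 21.0 ± 6.81 normalized reads (SD, n = 3), with a difference of -0.27 on the log2 scale (SE 0.37, adjusted p = 0.785, limma). Its direction rested on single libraries, since the difference was 0.01 without NPM1 KD replicate 3 and -0.74 without CTR replicate 3 (unadjusted p = 0.0453, adjusted p = 0.415, limma). The mean of *Atrx* by itself allowed 53 sets of reads, of which the rlog values left 1. The rlog values were 5, 5 and 4 in each group.

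**Figure D2:**
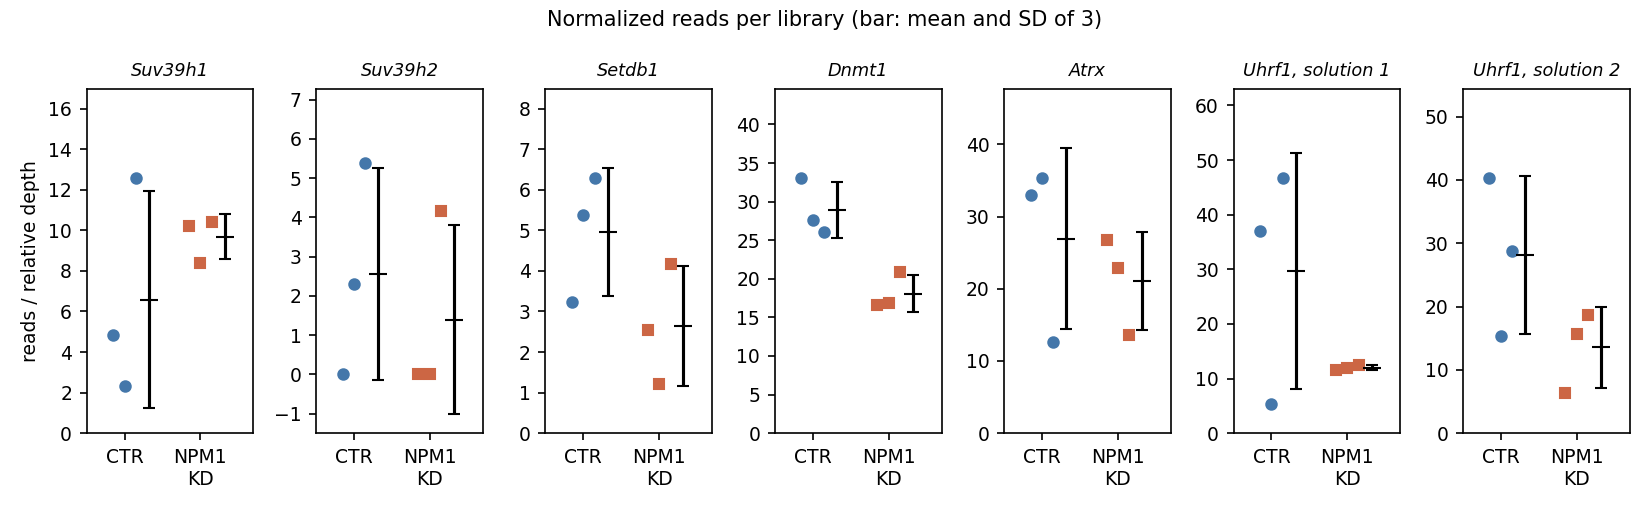
Normalized reads (reads divided by the relative depth of the library) in the 3 CTR (circles) and 3 NPM1 KD libraries (squares), each gene on its own linear axis, with the mean and SD of 3 as a bar. *Uhrf1* is drawn for both of its solutions. The groups of *Dnmt1* do not overlap, while those of *Suv39h1*, *Suv39h2*, *Setdb1*, *Atrx* and both solutions of *Uhrf1* do.

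Across the 10 genes, the tables thus held different amounts of information. For 5 genes (*Suv39h1*, *Suv39h2*, *Setdb1*, *Dnmt1* and *Atrx*) the ratio was fixed to 1 value, 4 lower and 1 higher in NPM1 KD, for *Dnmt1* and *Atrx* only with the help of the rebuilt rlog values. On the log2 scale of the fit on reads these 5 were again 4 lower and 1 higher. Lower means on that scale made up 56% of the 7878 genes in the fit, whose median difference was -0.12. A gene can be lower on that scale without lower mean normalized reads, such as *Usp7* (23.0 in CTR, 23.5 in NPM1 KD, difference -0.02). Each NPM1 KD library was shallower than each CTR library, and the part of depth in this share was not tested. The solutions of *Uhrf1* and *Cbx3*, which had to give their lower rlog values, were bounded away from 0, and *Cbx1*, *Cbx5* and *Trim28* had solutions on both sides of 0. All of these bounds rest on rlog values rebuilt at means above 15.2, the highest mean in the check of the rebuilding. The log2 ratios of *Suv39h2*, *Setdb1* and *Suv39h1*, whose rlog values were flat or nearly so, were -0.88, -0.91 and 0.56, and none of these exceeded the spread between replicates by the test.

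**Figure D3:**
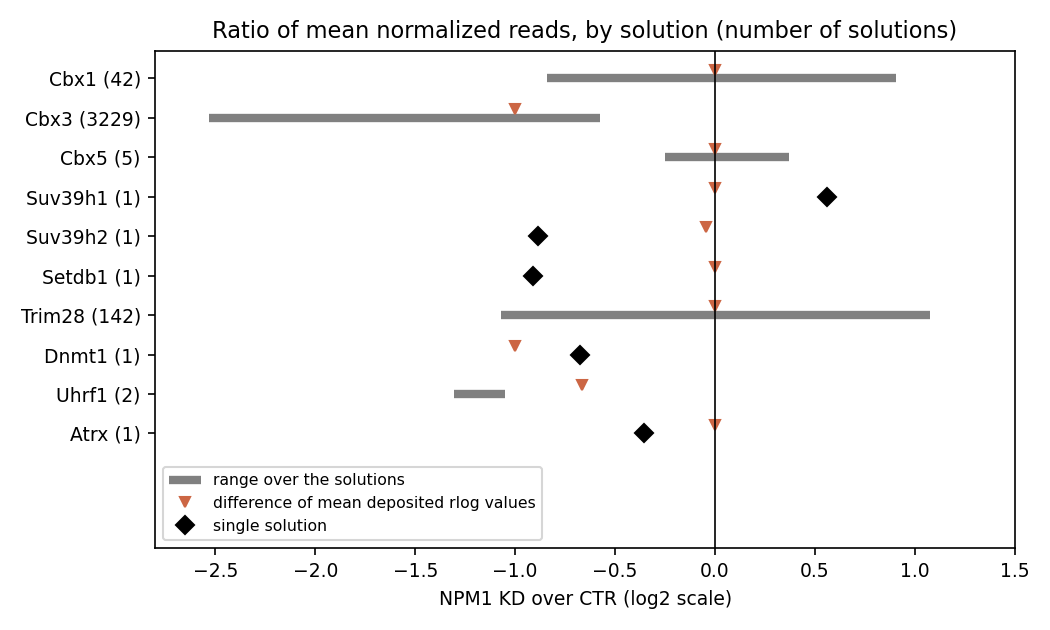
Log2 ratio of the mean normalized reads in NPM1 KD over CTR for each of the 10 genes, as a single value (diamond) or as the range over all solutions (bar), with the number of solutions in brackets and the difference of the mean deposited rlog values as triangles. *Cbx3* lies between -2.53 and -0.57, while the ranges of *Cbx1*, *Cbx5* and *Trim28* include 0.

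Other genes that write, read or remove these marks, or act beside them in silencing, were read from the same fit. The list holds 54 genes with a row, among them erasers of the marks (6 lysine 9 demethylase genes, the TET genes and *Tdg*), of which 3 were at 0 throughout and 28 lay over the filter. Of these 28, 5 had a lower mean in NPM1 KD, 6 a higher mean and 17 an equal mean, with a median difference of 0, as over all tested genes. None passed the test with limma, and 1 was below an unadjusted 0.05, where 14.1% of the tested genes were. This was *Pphln1*, a subunit gene of the HUSH complex that silences retroelements (4, 4 and 4 in CTR, 4, 5 and 5 in NPM1 KD, difference 0.67, adjusted p = 0.33, limma). In the fit on reads 31 of the 54 had a value, and again none passed. On the log2 scale of this fit 20 of them had a lower mean, as did 56% of all 7878 genes in it. Among the 20, *Mbd1* and *Pias4* had higher mean normalized reads in NPM1 KD (2.71 in CTR and 3.58 in NPM1 KD, and 16.97 and 16.98).

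Among other genes of DNA methylation, *Dnmt3a*, a de novo DNA methyltransferase gene, had a difference of 0.44 on the log2 scale of the reads (unadjusted p = 0.151), *Dnmt3b* had a mean of 1.23 normalized reads, and *Dnmt3l* was at 0. *Hells*, a remodeller gene needed for methylation of repeats, was at 5 in all 6 libraries. Of 4 tested genes of the HUSH and MORC group 3 had a higher mean and 1 an equal mean, with a median rlog difference of 0.5. The groups of all 4 overlapped, and none passed the test. For comparison, 25.4% of the 4335 tested genes with a promoter window had a higher mean. *Daxx*, the partner of *Atrx*, had a log2 difference of 0.06 on reads (unadjusted p = 0.916).

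*Setdb2*, a relative of *Setdb1* also counted among the lysine 9 methyltransferases, had rlog values that did not overlap, at 2, 2 and 2 for CTR and 3, 3 and 3 for NPM1 KD. It lay under the filter. It had 5, 4 and 2 reads in CTR and 13, 6 and 7 in NPM1 KD. Its mean was 2.96 normalized reads in CTR and 10.4 in NPM1 KD, with a log2 difference of 1.60 (SE 0.55, unadjusted p = 0.00777, adjusted p = 0.165, limma). Of all genes in the fit on reads, 8.1% had NPM1 KD values that all lay above the CTR values. In the opposite direction, *Kdm4a*, a lysine 9 demethylase gene, had 15, 13 and 20 reads in CTR and 6, 6 and 7 in NPM1 KD, without overlap after division by depth (13.3 and 7.38 normalized reads, log2 difference -0.77, SE 0.41, adjusted p = 0.379, limma), where 12.2% of all genes lay lower in this way. Of the 31 genes of the list in this fit, these were the 2 whose groups did not overlap. *Ehmt1* and *Ehmt2*, which encode the methyltransferases of lysine 9 in euchromatin, had rlog differences of 0 and -0.33.

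DNMT1 and UHRF1 act at replication forks, and their transcripts are known to follow the cell cycle. By flow cytometry of N2a cells, the study found cell cycle phases not significantly different between NPM1 KD and control. Of 13 genes of DNA replication and proliferation, 11 were tested, of which 7 had a lower mean in NPM1 KD, 4 an equal mean and none a higher mean. None passed the test with limma, and 2, *Mki67* and *Top2a*, were below an unadjusted 0.05 and had no overlap between groups, against 8.07% and 3.41% of all tested genes that were lower in these ways. *Mki67*, a marker of cycling cells, was at 6 in all CTR libraries and at 5 in all NPM1 KD libraries, and *Top2a*, which encodes a topoisomerase of dividing cells, was at 8 and at 7. The other 5 lower genes, which include *Pcna*, *Mcm3* and *Mcm4*, had differences of -0.33. The median of the 11 was -0.33, and the median over all tested genes was 0. Of the 4335 tested genes with a promoter window, 27.5% had a lower and 25.4% a higher mean. This tally rests on rounded values, and only 4 of the 13 genes had reads from a single solution. Of these, *Usp7*, counted as lower, had 23.0 normalized reads in CTR and 23.5 in NPM1 KD, while *Mcm5*, counted as equal, had 18.5 and 12.6 without overlap (log2 difference -0.59, adjusted p = 0.457, limma). The part of these shifts in the values of *Dnmt1*, *Uhrf1* and *Cbx3* was not tested.

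**Figure D4:**
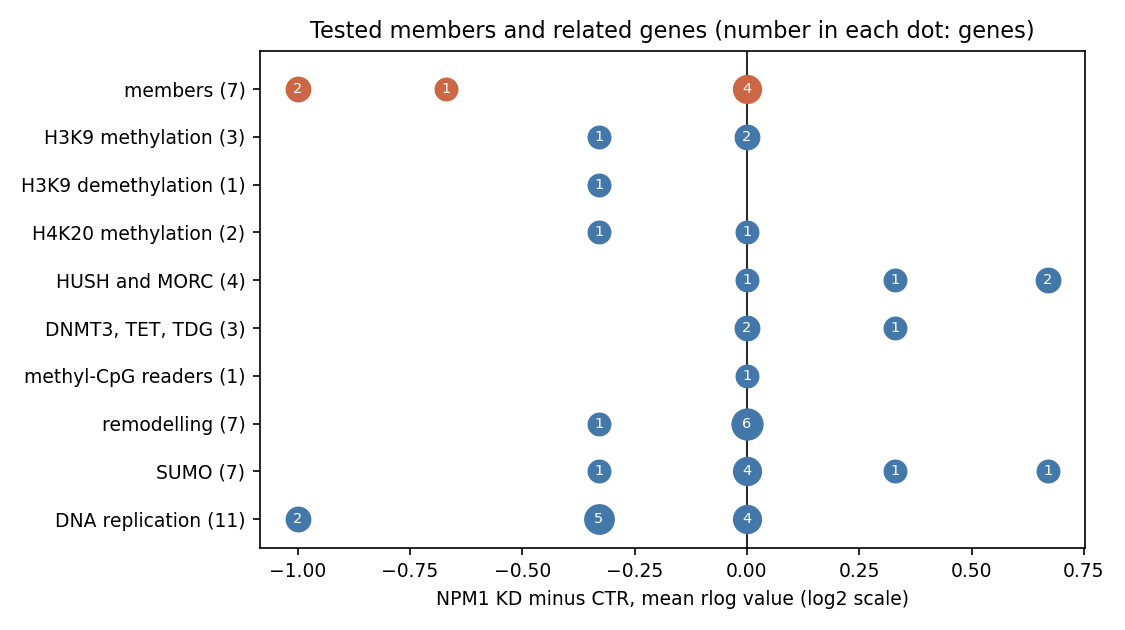
Difference of the mean rlog value (NPM1 KD minus CTR, log2 scale) of the tested silencing factors (orange) and of related genes by role (blue), with the number of genes in each dot and the number tested in brackets. The DNA replication genes lie at or below 0, and HUSH and MORC genes at or above 0, and none of them passed the test.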

How the data were processed

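Per the labels, minimap2, featureCounts and DESeq2 were used with GRCm39 (versions not given in the sources used here). The authors deposited rlog values, a score on the log2 scale that was rounded to whole numbers outside -1 to 1, and for each gene a mean normalized count over all libraries. The results of their own comparison (fold change, its error, statistic, p-value, adjusted p-value) were not used. Of 26913 rows, 257 repeat a gene ID and were dropped. Library totals are not in the tables, and 0 columns of values lacked a sample.

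The rlog values of genes whose mean reached log2 of 10 were tested with limma 3.58.1 (R 4.3.3), with variances within groups kept at or above 0.0833 (what rounding adds), an intensity trend, two-sided p-values and Benjamini-Hochberg adjustment. Whether the libraries are separate cultures is unclear, so p-values may measure technical spread only. Some genes, such as *Npm1*, *Cbx3* and *Dnmt1*, had identical rlog values within each group. Their SE and p-value on rlog values come from the variance limit and from other genes, and measure no spread of their replicates. Reads were solved in Python 3.11.15: genes with 1 read in 1 library give what a read adds to the mean, all whole-number combinations giving a mean were listed, and those were kept whose rlog value, rebuilt with a negative binomial ridge fit, rounds to the deposited values within 0.01 (0.02 for values with decimals). As an exception, for *Cbx1*, *Cbx3* and *Trim28*, whose means lie above 40, only normalized reads of about 0.1 to 3 times the mean were searched. No kept combination lay at these limits. Of the genes of mean 1 to 25, 7878 had 1 combination and 4 had none. Their log2(normalized reads + 0.5) was tested with limma and a trend. Solving reads was planned, but the use of rlog values, the limits on the mean, the tolerances and the pseudocount were chosen after the data had been seen, over several versions. The fits with limma were tested on simulated data. So was the solving of reads, for means of 1 to 25 and with the depths and rlog settings known. Finding the depths, fitting the rlog rebuilding, the search at higher means and the promoter search were not tested in this way.

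The members and lists were chosen with earlier results of these data known. Named are the 10 members, *Npm1*, and other silencing genes that passed the test or whose groups did not overlap on rlog values. The further genes named, and the promoter string, were picked after their values had been seen. Of the marker list, 2 genes are not reported here.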

Additional observations from a re-analysis of the deposited data

How the results depend on the processing

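The main fit called 0 of 7 silencing factors lower or higher, and all other settings tried except 2 called none either. The number tested differed, with 10 for all genes not at 0 and 5 on reads. Of the 7, only *Dnmt1* and *Atrx* were among those 5, so the fits on reads do not cover *Cbx3*. Without a lower limit on the variance 2 passed (*Cbx3*, adjusted p = 3.58e-11, and *Dnmt1*, adjusted p = 1.01e-11), where values identical within groups have no variance of their own, and with the limit but without the trend 2 passed (adjusted p = 0.0304 for both, limma). Over the other settings on rlog values the adjusted p of *Cbx3* and *Dnmt1* ran from 0.0674 to 0.248, with the same direction. Over all genes 28 passed, against 301 without the limit, 350 without the trend, 11 with all genes not at 0, 8 with the replicate block, 5 to 10 with 1 library left out, 111 on reads (98 lower, 13 higher), 210 on reads with the replicate block and 0 to 62 on reads with 1 library left out (0, 1 and 6 without CTR replicate 1, 2 and 3, and 52, 58 and 62 without NPM1 KD replicate 1, 2 and 3). The part of the shallower NPM1 KD libraries in the 98 lower and 13 higher genes on reads was not tested. The other silencing genes gave 0 under every setting run. Same-numbered libraries did not deviate together (correlations of 0.001 to 0.03 on rlog values and 0 to 0.041 on reads), so the block rests on numbers alone. With the block *Dnmt1* had an adjusted p of 0.232 on rlog values and 0.305 on reads. On reads, with 1 library left out, the difference of *Dnmt1* ran from -0.77 to -0.56, of *Setdb1* from -1.22 to -0.49, of *Suv39h1* from 0.28 to 1.39, of *Suv39h2* from -2.01 to -0.17 and of *Atrx* from -0.74 to 0.01, whose sign turned without NPM1 KD replicate 3. The fits on reads with a block, with 1 library left out, and with the solutions of *Uhrf1* and *Cbx5* were added after the data had been seen. Rounding limits *Cbx1*, *Cbx3* and *Trim28*, and read depth limits *Suv39h1*, *Suv39h2* and *Setdb1*.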
